A study of Mus musculus with 16 samples.

Results

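The genes described here encode calmodulin-dependent protein kinases, subunits of the energy sensor AMPK, and kinases upstream of these. The set has 10 members, which are the upstream kinase genes Camkk2, Camkk1 and Stk11, the calmodulin-dependent kinase genes Camk1, Camk1d and Camk4, and the AMPK subunit genes Prkaa1, Prkab1, Prkab2 and Prkag1. Members were taken by gene symbol in the probe annotation, and 9 of the 10 had a probe set, among 19505 genes on the array. No probe set carried the symbol of Camkk1, and that gene was not analysed here. Each of the other 9 members had 1 probe set.

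The study asked how loss of CaMKK2 alters the way macrophages develop under factors shed by breast cancer cells. RNA of bone marrow-derived macrophages (BMDM) was measured on 16 mouse Affymetrix arrays, 4 in each of 4 groups. WT cells carried Camkk2 +/+ and the others were Camkk2-/-. Each genotype was grown in differentiation medium with either regular medium (RM) or tumor-conditioned medium (TCM, written CM in the labels) added. By the study's methods RM was added in equal volume and was RPMI-1640 with serum. All cells received 30% L929-conditioned medium as the source of macrophage growth factor and were cultured for 5 days, so TCM was present while the macrophages formed. TCM came from E0771 cells, a mouse mammary tumor line, and was added at 20% by the labels and at 25% by the study's methods. The donors were female mice of 10 to 12 weeks, and the 4 biological replicates of a genotype were made from the long bones of 16 mice. The knockout mice lack the gene in all cell types and not in macrophages alone, and the sources used here do not give which exons the allele removes or which ones the probe set reads.

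CaMKK2 and CaMKK1 are calmodulin-dependent kinase kinases, which, once calcium-loaded calmodulin binds them, phosphorylate CaMKI and CaMKIV in the activation loop. CaMKK2 also phosphorylates the catalytic alpha subunit of AMPK, a site that it shares with LKB1, the product of Stk11. AMPK is a complex of a catalytic alpha, a scaffolding beta and a nucleotide-binding gamma subunit, and in macrophages it is known for holding back inflammatory activation and for shifting fuel use towards oxidation. Arrays measure RNA, and say nothing of the phosphorylation through which this pathway works.

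All values are log2 signals, in which a difference of 1 is a doubling of signal, and 23 antigenomic control probe sets, which measure background, read 5.37 at their median. Signals of different genes come from different probes and are not compared. A difference is called when its adjusted p in limma, a linear model fitted across all 19505 genes, lies under 0.05. Macrophage markers were well above background in every group, with 7 of 7 measured genes above its median. Markers of dendritic cells, lymphocytes, and epithelial cells and fibroblasts were mostly below it, with 1 of 6, 1 of 5, and 1 or 2 of 6 above, and of 4 erythroid and mast cell markers 1 or 2 were above. The mean signal of 9 neutrophil markers ran over the arrays from 7.93 to 9.06 for WT RM, 8.38 to 9.43 for Camkk2-/- RM, 9.34 to 10.78 for WT TCM and 10.17 to 11.66 for Camkk2-/- TCM cultures. That of 4 inflammatory monocyte markers ran from 9.88 to 11.75, 11.17 to 12.38, 11.88 to 14.62 and 14.44 to 15.74 in the same order. Of the neutrophil markers 8 of 9 lay above background in each group, with Camp, a granule gene of late neutrophil precursors, below it in all 4. The arrays of WT TCM replicates 1 and 3 lay farther from their group mean (SD over genes 0.325 and 0.355) than the other 14 (0.22 to 0.301).

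The promoters of the 4 members whose RNA was called in any comparison are shown, since the results turn on these genes. Each window has 250 bases before and 50 after a transcript start and comes from RefSeq on build GRCm38.p6, written 5′ to 3′ on the gene's strand. For Camkk2 and Camk1d this start lies inside the annotated span of the gene and not at its outer end. They lie at chr5:122779361-122779660 on the minus strand for Camkk2, chr6:113343873-113344172 on the minus strand for Camk1, chr2:5714713-5715012 on the minus strand for Camk1d, and chr3:97657962-97658261 on the plus strand for Prkab2. The table holds 2 promoters for Camk1d, of which 1 is shown, and 1 for each of the others. Capitals mark matches, on either strand, to the motifs searched.
Camkk2: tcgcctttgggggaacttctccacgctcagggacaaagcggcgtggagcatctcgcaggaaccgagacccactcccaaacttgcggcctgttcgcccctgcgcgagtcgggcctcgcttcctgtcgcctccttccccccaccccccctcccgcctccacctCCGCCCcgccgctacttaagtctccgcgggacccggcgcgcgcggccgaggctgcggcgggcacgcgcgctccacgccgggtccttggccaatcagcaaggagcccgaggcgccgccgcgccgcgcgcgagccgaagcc
Camk1: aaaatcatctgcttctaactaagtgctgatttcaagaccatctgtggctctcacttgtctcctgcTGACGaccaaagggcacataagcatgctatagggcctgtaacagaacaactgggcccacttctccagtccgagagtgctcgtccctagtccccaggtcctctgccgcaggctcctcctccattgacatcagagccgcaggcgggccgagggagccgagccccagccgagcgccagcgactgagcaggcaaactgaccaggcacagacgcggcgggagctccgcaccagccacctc
Camk1d: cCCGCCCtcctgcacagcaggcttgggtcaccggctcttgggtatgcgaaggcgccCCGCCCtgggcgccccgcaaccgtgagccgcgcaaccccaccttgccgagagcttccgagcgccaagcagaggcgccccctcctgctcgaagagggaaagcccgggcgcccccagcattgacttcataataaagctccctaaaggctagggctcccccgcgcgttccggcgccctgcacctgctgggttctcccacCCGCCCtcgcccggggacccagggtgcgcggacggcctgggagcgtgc
Prkab2: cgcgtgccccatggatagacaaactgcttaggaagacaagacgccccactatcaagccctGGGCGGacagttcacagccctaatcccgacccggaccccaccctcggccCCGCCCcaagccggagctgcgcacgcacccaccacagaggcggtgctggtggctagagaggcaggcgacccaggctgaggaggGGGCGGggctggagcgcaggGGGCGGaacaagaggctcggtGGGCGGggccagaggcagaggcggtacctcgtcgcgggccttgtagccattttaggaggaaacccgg
The motifs were the core of the cAMP response element (TGACG), the GC box (CCGCCC), the E-box (CACGTG), a PU.1-type core (GAGGAAG) and an interferon response element (2 GAAA cores with any 2 bases between them), each on both strands. The window of Camkk2 held 1 GC box, that of Camk1d 3 and that of Prkab2 5, and the window of Camk1 held none but had 1 cAMP response element core. None of these matches overlapped another. The E-box, the PU.1-type core and the interferon response element had no match in these 4 windows. Of all 32851 promoter windows of the same length, 35.7% held a GC box, 20.8% the cAMP response element core, 7.15% the E-box, 13.6% the PU.1-type core and 3.44% the interferon response element. The 4 windows were rich in G and C, at 73.3% for Camkk2, 71.3% for Camk1d, 68.0% for Prkab2 and 60.0% for Camk1, against a median of 52.7% over all promoters. Camkk2 had 42 CpG dinucleotides in its 300 bases, Camk1d 29, Prkab2 23 and Camk1 15, against a median of 7. These matches describe the letters only.

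Camkk2, the deleted gene, was lower in Camkk2-/- than in WT BMDM in both media. In RM the WT arrays read 9.83, 9.58, 9.82 and 9.11, and the Camkk2-/- arrays 7.20, 7.43, 6.07 and 6.26. In TCM the WT arrays read 9.61, 9.59, 9.14 and 9.68, and the Camkk2-/- arrays 7.94, 7.29, 8.15 and 7.24. Every knockout array lay below every WT array of the same medium, by 1.68 at the nearest in RM and 0.996 in TCM, and every knockout array still lay above the background median. The log2 fold change was −2.85 in RM (standard error, SE, 0.28, adjusted p = 6.14e-06, limma) and −1.85 in TCM (SE 0.28, adjusted p = 0.000387), which is 7.19-fold and 3.61-fold lower signal. An exact permutation test of 4 arrays against 4, two-sided, gave p = 0.0286 in each medium, the smallest p this design allows.

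The residual Camkk2 signal of the knockout cells had a higher mean in TCM than in RM. Its mean was 6.74 ± 0.67 (SD, n = 4) in RM and 7.65 ± 0.46 in TCM, a rise of 0.91 (SE 0.28, adjusted p = 0.0382, limma) or 1.89-fold. The groups overlapped, since RM replicate 2 at 7.43 lay above TCM replicates 2 and 4, and the exact permutation test gave p = 0.114. The means of the 23 background probe sets ran from 2.48 to 6.82, a range that holds the knockout mean in RM. The call was lost without Camkk2-/- RM replicate 3 (0.69) or 4 (0.75) or Camkk2-/- TCM replicate 1 (0.82) or 3 (0.75), with adjusted p from 0.0105 to 0.15 when 1 array was left out. In WT cells the difference between TCM and RM was −0.08 (95% confidence interval −0.66 to 0.51, adjusted p = 0.951). The difference between genotypes in the effect of TCM was 0.99 (SE 0.40) and did not pass (adjusted p = 0.481).

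Camkk2 lies at chr5:122718380-122779522 of build GRCm38.p6, and its annotated span shares 11360 bases with that of P2rx4, the gene of an ATP-gated cation channel. P2rx4 showed no such drop. Its log2 fold change between Camkk2-/- and WT was −0.03 in RM (adjusted p = 0.993, limma) and 0.09 in TCM (adjusted p = 0.926), with group means from 14.50 to 14.78. On the other side, 7936 bases away, lies Anapc5, a subunit gene of the anaphase-promoting complex, with differences of −0.37 (adjusted p = 0.676) and −0.62 (adjusted p = 0.0776). The next genes in the reference, Gm10064 and Gm33044, had no probe set. The next measured gene on each side was looked at after their values were known. Rnf34, a ubiquitin ligase gene, was lower in the knockout, with log2 fold changes of −1.33 in RM (adjusted p = 0.00289) and −1.23 in TCM (adjusted p = 0.0018).

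Rnf34 also rose with TCM, by 1.00 in WT (adjusted p = 0.0141, limma) and 1.10 in Camkk2-/- BMDM (adjusted p = 0.0019). P2rx7, a channel gene next to P2rx4, had differences between genotypes of 0.27 (adjusted p = 0.903) in RM and −0.11 (adjusted p = 0.899) in TCM. What lies behind the lower signal of Rnf34 was not tested.

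**Figure D1:**
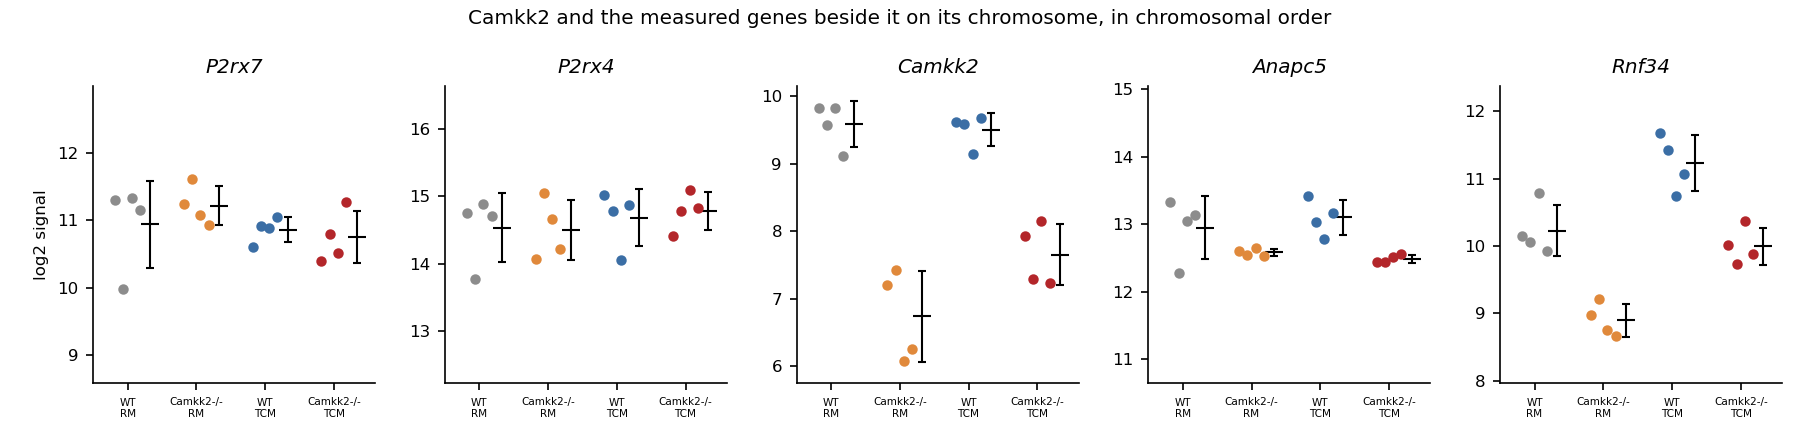
Log2 signal (vertical axes, of equal length in log2 units in every panel) of Camkk2 and the measured genes around it, in chromosomal order, for WT and Camkk2-/- BMDM in RM and TCM (horizontal axis). Points are arrays and bars are mean ± SD of 4 arrays. Camkk2 and Rnf34 are lower in Camkk2-/- cells in both media, and P2rx4, whose span overlaps that of Camkk2, has group means between 14.50 and 14.78.

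Camkk2 apart, loss of the gene moved the RNA of no other member past the test. Between Camkk2-/- and WT RM-BMDM, 1 of 9 members was lower, Camkk2 itself, against 0.292% of all genes lower, and 0 were higher (1 higher at an unadjusted p under 0.05, limma) against 0.446% of all genes. In TCM, again 1 of 9 was lower (2 at an unadjusted p under 0.05), against 1.79% of all genes, and 0 were higher (1 unadjusted) against 2.7%. The median difference of the 9 members was 0.10 in RM and 0.06 in TCM, beside 0.02 and −0.02 over all genes. For the effect of TCM the background shares were 2.21% higher and 0.697% lower in WT BMDM, and 6.13% higher and 5.37% lower in Camkk2-/- BMDM. In WT BMDM 1 of 9 members fell and 0 rose (0 at an unadjusted p under 0.05). In Camkk2-/- BMDM 3 fell and 1 rose. Their medians were −0.11 and −0.04, beside 0.04 and 0.01 over all genes. The medians of the members include Camk4, below background on all 16 arrays. Its own value is the median between genotypes in TCM and that for TCM in Camkk2-/- BMDM. The difference between genotypes in the effect of TCM passed for 0 members (1 at an unadjusted p under 0.05), against 0.0513% of genes higher and 0.0923% lower.

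**Figure D2:**
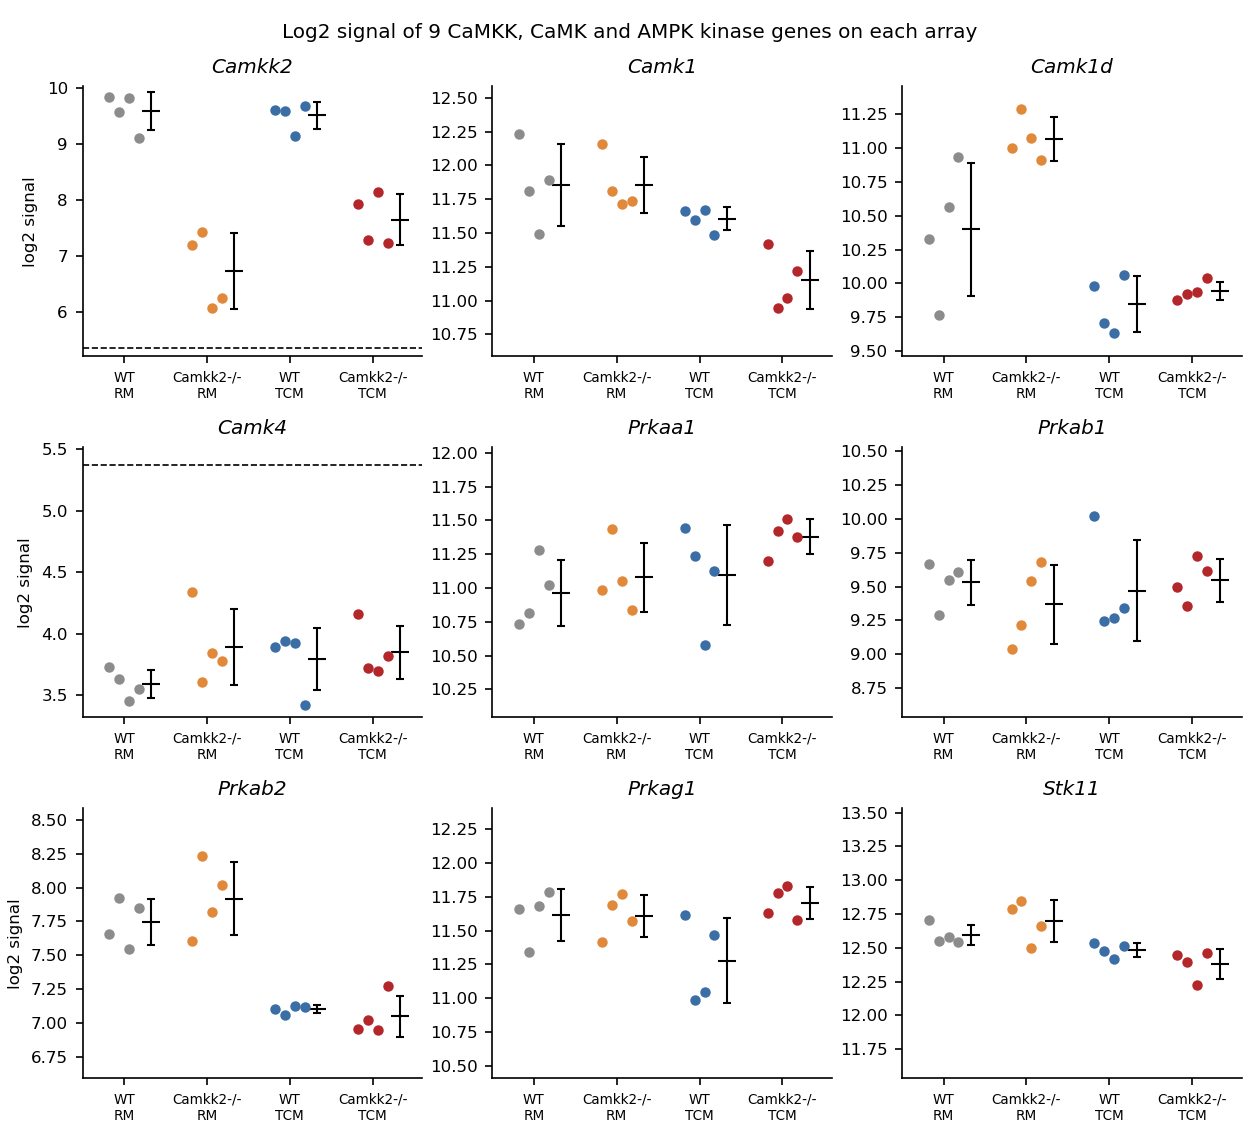
Log2 signal (vertical axes, which differ in position and length between panels) of the 9 measured members on each array, by group (horizontal axis). Points are arrays, bars are mean ± SD of 4 arrays, and the dashed line is the background median of 5.37 where it falls in the panel. Camkk2 separates by genotype, Prkab2 is lower in TCM in both genotypes, and Camk1d is lower in TCM in Camkk2-/- cells. In WT cells Camk1d overlaps between media, and Camk4 lies below background on all 16 arrays.

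Camk1 encodes CaMKI alpha, a substrate of the CaMKKs that is found in most tissues. It fell with TCM in Camkk2-/- BMDM, from arrays at 12.16, 11.81, 11.71 and 11.74 in RM to 11.42, 10.94, 11.02 and 11.22 in TCM. These groups did not overlap, and the log2 fold change was −0.70 (SE 0.17, adjusted p = 0.00887, limma), or 1.63-fold lower. The WT arrays read 12.23, 11.81, 11.49 and 11.89 in RM and 11.67, 11.60, 11.67 and 11.49 in TCM, and overlapped. Their difference was −0.25 (95% confidence interval −0.61 to 0.11, adjusted p = 0.574). In TCM all 4 knockout arrays lay below all 4 WT arrays, by 0.0645 at the nearest, with a difference of −0.45 (SE 0.17) that did not pass over all genes (adjusted p = 0.171) and an exact permutation p = 0.0286. In RM the genotypes differed by −0.0036 (95% confidence interval −0.36 to 0.35). The unlike effect of TCM in the genotypes was itself −0.45 and did not pass (adjusted p = 0.674).

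Camk1d encodes CaMKI delta, the isoform known from neutrophils and other white blood cells. Its fall with TCM in Camkk2-/- BMDM was the largest of the 3 member falls called there. It went from 11.00, 11.29, 11.08 and 10.91 in RM to 9.88, 9.92, 9.93 and 10.04 in TCM, with a gap of 0.873 between the groups. The log2 fold change was −1.13 (SE 0.20, adjusted p = 0.000458, limma), or 2.18-fold lower. In WT BMDM the RM arrays were spread widely, at 10.33, 9.76, 10.57 and 10.93, and replicate 2 lay within the TCM arrays of 9.98, 9.71, 9.63 and 10.06. The difference was −0.55 (SE 0.20, adjusted p = 0.169), and it passed without that replicate (−0.77, adjusted p = 0.0221, range 0.0221 to 0.431 when 1 array was left out).

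In RM the mean of Camk1d was 0.67 higher in Camkk2-/- than in WT cells (SE 0.20), which did not pass (adjusted p = 0.172, limma). The groups touched, since WT replicate 4 at 10.93 lay above knockout replicate 4 at 10.91, and without that WT array the difference was 0.85 and passed (adjusted p = 0.0433, range 0.0433 to 0.426 when 1 array was left out). In TCM the genotypes differed by 0.10 (95% confidence interval −0.31 to 0.51, adjusted p = 0.888). The difference between genotypes in the effect of TCM was −0.57 (SE 0.28, adjusted p = 0.619).

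Camk4 encodes CaMKIV, a kinase of T cells and neurons that phosphorylates CREB in the nucleus. Its signal lay between 3.42 and 4.34, below the background median on all 16 arrays, so its fold changes are not interpreted. Group means were 3.59, 3.89, 3.79 and 3.85 in WT RM, Camkk2-/- RM, WT TCM and Camkk2-/- TCM-BMDM. The lymphocyte markers Cd3e and Cd3g, genes of the T cell receptor complex, were below background in every group too.

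Prkaa1 encodes AMPK alpha 1, the catalytic subunit that CaMKK2 and LKB1 phosphorylate. Its means were 10.96 ± 0.25 in WT RM, 11.08 ± 0.26 in Camkk2-/- RM, 11.10 ± 0.37 in WT TCM and 11.38 ± 0.13 in Camkk2-/- TCM-BMDM (SD, n = 4), and no pair of neighbours in this order was apart beyond its spread. The difference between genotypes was 0.12 in RM (95% confidence interval −0.28 to 0.51) and 0.28 in TCM (−0.11 to 0.68), and none of the 4 differences passed (adjusted p from 0.367 to 0.963, limma). The gene of the other catalytic subunit, Prkaa2, had group means of 4.14 to 4.41, all below background.

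Prkab2 encodes AMPK beta 2, a scaffold that binds glycogen and is best known from muscle. It fell with TCM in both genotypes. In WT cells it went from 7.66, 7.92, 7.55 and 7.85 in RM to 7.10, 7.06, 7.13 and 7.12 in TCM. In Camkk2-/- cells it went from 7.61, 8.23, 7.82 and 8.02 to 6.96, 7.02, 6.95 and 7.27. Neither pair of groups overlapped, and all 8 RM arrays lay above all 8 TCM arrays.

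The log2 fold change of Prkab2 was −0.64 in WT (SE 0.16, adjusted p = 0.0266, limma) and −0.87 in Camkk2-/- BMDM (SE 0.16, adjusted p = 0.000602), which is 1.56-fold and 1.83-fold lower. These differed by −0.23 (95% confidence interval −0.69 to 0.23, adjusted p = 0.873). The fall in WT cells had an adjusted p between 0.0515 and 0.0822 without WT RM replicate 2 or 4 or WT TCM replicate 1, 2 or 4, with values from −0.58 to −0.65, and the fall in Camkk2-/- cells passed without any 1 array. Between genotypes the difference was 0.17 in RM and −0.05 in TCM, and neither passed (adjusted p = 0.895 and 0.93).

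Prkab1 encodes the other scaffold, AMPK beta 1, the main beta subunit of mouse macrophages and liver. Unlike the values of Prkab2, those of Prkab1 overlapped in all 4 comparisons, with group means of 9.53, 9.37, 9.47 and 9.55 in the order WT RM, Camkk2-/- RM, WT TCM and Camkk2-/- TCM. Its effect of TCM was −0.06 in WT (95% confidence interval −0.46 to 0.33) and 0.18 in Camkk2-/- BMDM (−0.22 to 0.57). The effect of TCM was not tested for a difference between the beta subunit genes, which different probes read.

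Prkag1 encodes AMPK gamma 1, the common nucleotide-sensing subunit. Its WT arrays read 11.66, 11.34, 11.68 and 11.79 in RM and 11.62, 10.99, 11.04 and 11.46 in TCM, and its Camkk2-/- arrays 11.41, 11.69, 11.77 and 11.57 in RM and 11.63, 11.78, 11.83 and 11.58 in TCM. WT TCM replicates 2 and 3 were the low arrays. The difference between genotypes in TCM was 0.43 (SE 0.17) and did not pass (adjusted p = 0.194, limma), with an overlap of 0.0393 between the groups. In RM the genotypes differed by −0.01 (95% confidence interval −0.36 to 0.34).

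Stk11 encodes LKB1, the upstream kinase that phosphorylates AMPK independently of calcium. Its means were 12.60 ± 0.07, 12.70 ± 0.15, 12.48 ± 0.05 and 12.38 ± 0.11 (SD, n = 4) in the same order of groups. In Camkk2-/- BMDM the RM arrays (12.50 to 12.84) lay above the TCM arrays (12.22 to 12.46) with a gap of 0.0409, and the log2 fold change of −0.32 (SE 0.13) did not pass (adjusted p = 0.147, limma). In WT BMDM the groups were also apart, by 0.0114, at −0.11 (adjusted p = 0.803). Between genotypes the difference was 0.10 in RM (95% confidence interval −0.18 to 0.38) and −0.10 in TCM (−0.38 to 0.18).

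**Figure D3:**
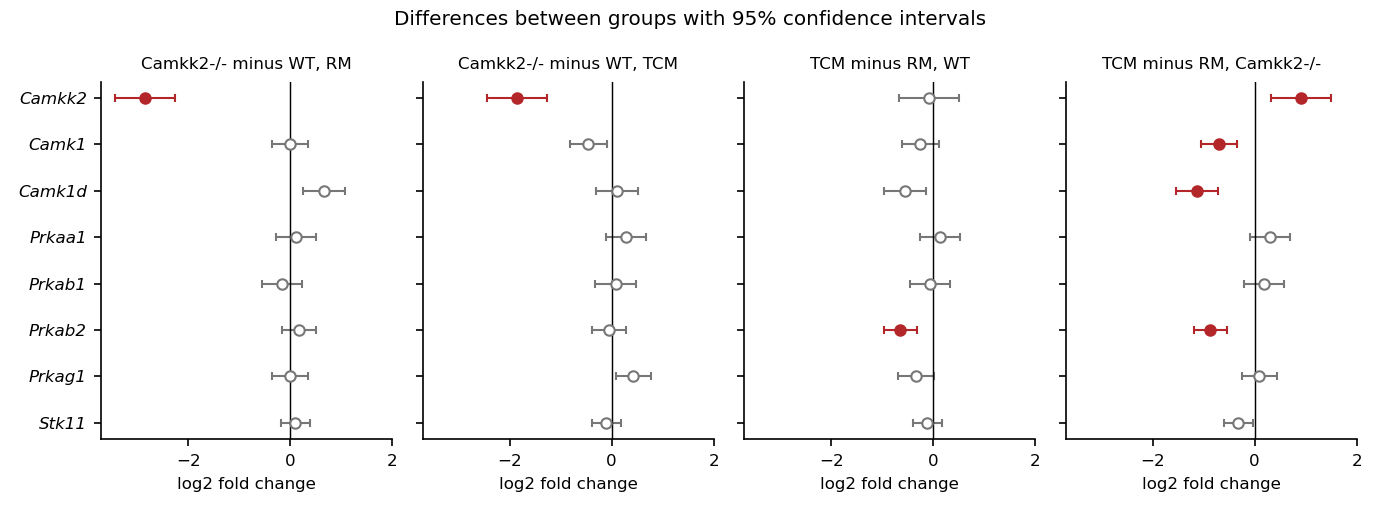
Log2 fold change (horizontal axes) of 8 members in 4 comparisons, with 95% confidence intervals from limma. Filled red points passed at an adjusted p under 0.05 and open points did not, and Camk4, below background on every array, is left out. Of the 7 differences that passed, 2 are of Camkk2 between genotypes and 5 are between TCM and RM, 4 of these in Camkk2-/- cells.

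In all, 7 member differences passed, and 5 of them were differences between media. The exact permutation test of 4 arrays against 4 was run for 36 member comparisons and reached its smallest p of 0.0286 in 9 of them. That p marks 2 groups that do not overlap. The 9 include Camkk2 between genotypes in both media, and Stk11 in WT, where the groups were apart by 0.0114. The share of all genes at that p was not computed, so the 9 are not read as a result about the set. The neutrophil markers also moved between media. Of 9, 5 rose with TCM in each genotype (limma). Of the 4 inflammatory monocyte markers 2 rose in each. Of the 7 macrophage markers 1 rose in WT, and in Camkk2-/- BMDM 3 fell and 1 rose. In the knockout, 3 of 6 dendritic cell and 2 of 4 erythroid and mast cell markers also rose with TCM. So did 1 of 6 epithelial and fibroblast markers, and in WT 2 erythroid and mast cell markers rose. In each group 1 of the 6 dendritic cell markers lay above background, and changes of those below it are not interpreted. Of all genes, 2.21% rose and 0.697% fell in WT, and 6.13% rose and 5.37% fell in Camkk2-/- BMDM. The part of the marked cell types in the rise of Camkk2 in the knockout and in the falls of Camk1, Camk1d and Prkab2 was not tested. In RNA from whole cultures, fewer cells that express a gene and less of its RNA in each cell cannot be told apart.

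The wider pathway was read from 8 lists with 98 genes, of which 86 were measured. In RM, 0 of the 86 differed between genotypes in either direction, beside 0.446% higher and 0.292% lower of all genes. At an unadjusted p under 0.05 (limma) 8 were higher and 1 lower, beside 1601 of all 19505 genes in either direction. In TCM 1 was higher and 0 lower in the knockout, beside 2.7% and 1.79% of all genes. Unadjusted, 8 were higher and 6 lower, beside 2976 of all genes. With TCM, 2 rose and 2 fell in WT BMDM, and 4 rose and 8 fell in Camkk2-/- BMDM, which are 2.33% each way in WT and 4.65% and 9.3% in the knockout, beside the shares of all genes above. The difference between genotypes in the effect of TCM passed for 0. At an unadjusted p under 0.05 (limma) 5 were lower, beside 1594 of all genes in either direction. The count of 4 in WT dropped to 1 without WT RM replicate 4 or WT TCM replicate 2 or 4, and to 2 without WT RM replicate 1 or 3, WT TCM replicate 3 or Camkk2-/- TCM replicate 2.

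Among 17 measured AMPK substrates, Pfkfb3, the enzyme gene that makes the glycolytic activator fructose 2,6-bisphosphate, was the one gene of the lists that differed between genotypes. In TCM it was higher in the knockout, with arrays at 11.74, 11.95, 12.21 and 11.71 against 11.11, 10.96, 10.54 and 10.94, a log2 fold change of 1.02 (SE 0.19, adjusted p = 0.00239, limma). In the same comparison 2 of 9 neutrophil and 1 of 4 inflammatory monocyte markers were higher in the knockout. So were 1 of 4 erythroid and mast cell and 1 of 6 epithelial and fibroblast markers, beside 2.7% of all genes. Of 7 macrophage markers 1 was lower, beside 1.79% of all genes. The part of these cell types in the difference of Pfkfb3 was not tested. Pfkfb3 also rose with TCM, by 0.97 in WT (adjusted p = 0.00535) and by 1.43 in the knockout (adjusted p = 2.06e-05). Gys1, the glycogen synthase gene of muscle and other tissues, rose by 1.14 in WT BMDM (adjusted p = 0.0298), where TCM replicate 3 at 10.85 stayed within the RM range of 10.43 to 11.21. Its difference in Camkk2-/- cells was 0.79 (adjusted p = 0.0782), and the 2 effects differed by −0.35 (adjusted p = 0.901).

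In Camkk2-/- BMDM, 2 of the 17 AMPK substrates fell with TCM, beside 5.37% of all genes. Foxo3, a transcription factor of stress resistance, fell by 1.29 on the log2 scale (adjusted p = 4.54e-05, limma), from 8.22 to 8.96 over the RM arrays to 7.20 to 7.47 over the TCM arrays. Txnip, an inhibitor of glucose uptake, fell by 0.92 on the same scale (adjusted p = 0.0116). In WT cells their differences were −0.53 (adjusted p = 0.158) and −0.76 (adjusted p = 0.0931). The effects of TCM differed between genotypes by −0.76 (adjusted p = 0.36) for Foxo3 and −0.16 (adjusted p = 0.952) for Txnip, and neither passed. The other substrate that rose in the knockout was Fnip1, the gene of a partner of folliculin, by 0.68 (adjusted p = 0.0148), which falls outside the naming rule and was chosen after its value was seen.

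Of 12 measured AMPK-related kinases, most of which LKB1 also activates, 1 fell and 1 rose with TCM in Camkk2-/- BMDM. Of all genes, 5.37% fell and 6.13% rose there. Nuak1 fell from 8.45, 9.22, 9.02 and 8.56 in RM to 7.14, 7.21, 7.19 and 7.56 in TCM, a log2 fold change of −1.53 (SE 0.18, adjusted p = 6.96e-06, limma). In WT the same difference was −0.55 (adjusted p = 0.136), and the 2 effects differed by −0.98 (adjusted p = 0.192). Sik3, a salt-inducible kinase gene, rose by 0.74 (adjusted p = 0.00581) in the knockout, with 0.26 (adjusted p = 0.566) in WT. Its 2 effects differed by 0.49 (adjusted p = 0.628).

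The CREB and class IIa HDAC axis, on which nuclear CaMKs act, had 14 measured genes, of which 2 fell with TCM in WT and 3 in Camkk2-/- BMDM. Of all genes, 0.697% fell in WT and 5.37% in Camkk2-/- BMDM. Mef2c, a transcription factor held in check by these HDACs, fell by 0.86 on the log2 scale in WT (adjusted p = 0.0377, limma) and by 0.88 in Camkk2-/- cells (adjusted p = 0.0104). Crtc1, a coactivator of CREB, fell by 0.88 (adjusted p = 0.041) and by 0.85 (adjusted p = 0.0176). Hdac4 fell in the knockout, by 0.61 (adjusted p = 0.0221), with −0.09 (adjusted p = 0.886) in WT, and the 2 effects differed by −0.52 (adjusted p = 0.594).

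Of 9 other calmodulin-dependent kinases and their inhibitors, 1 fell with TCM in Camkk2-/- BMDM, where 5.37% of all genes fell and 6.13% rose. The listed gene was Camk2a, the CaMKII gene best known from brain (adjusted p = 0.000543, limma), with a mean of 5.94 in RM and of 4.67 in TCM. The latter lies below the background median, so no fold change is given. In WT its means were 5.90 and 5.23, the latter also below background, and the difference did not pass (adjusted p = 0.147). Of 10 measured genes of calmodulin and store-operated calcium entry 1 fell in the knockout, Atp2a2, the calcium pump of the endoplasmic reticulum, by 0.71 on the log2 scale (adjusted p = 0.0022). Of 8 genes of the PGC1 and oxidative programme 1 rose there, Sirt1, a deacetylase gene, by 0.58 (adjusted p = 0.017). In WT cells the differences of Atp2a2 and Sirt1 were 0.03 (adjusted p = 0.968) and 0.15 (adjusted p = 0.752). The effects of TCM differed between genotypes by −0.74 (adjusted p = 0.236) and 0.42 (adjusted p = 0.643), and neither passed.

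The list nearest to the members, with the other AMPK subunits and LKB1 partners, had 8 measured genes and 0 called in all 5 comparisons (limma), with 1 lower between genotypes in TCM and 1 each way with TCM in the knockout at an unadjusted p under 0.05. Prkag2, the gene of the gamma 2 subunit, had the lowest of its group means in Camkk2-/- TCM-BMDM (9.24, against 9.72 in RM, adjusted p = 0.104). Cab39l, listed as a partner of LKB1, went the other way there (12.40, against 11.96 in RM, adjusted p = 0.136). The phosphatases of CaMK and AMPK also had 0 of 8 called in the 5 comparisons, with 1 lower at an unadjusted p under 0.05 with TCM in the knockout, Ppm1f, the gene of a CaMK phosphatase (−0.62, adjusted p = 0.058). Prkag2, Cab39l and Ppm1f fall outside the naming rule and were chosen after their values were seen.

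**Figure D4:**
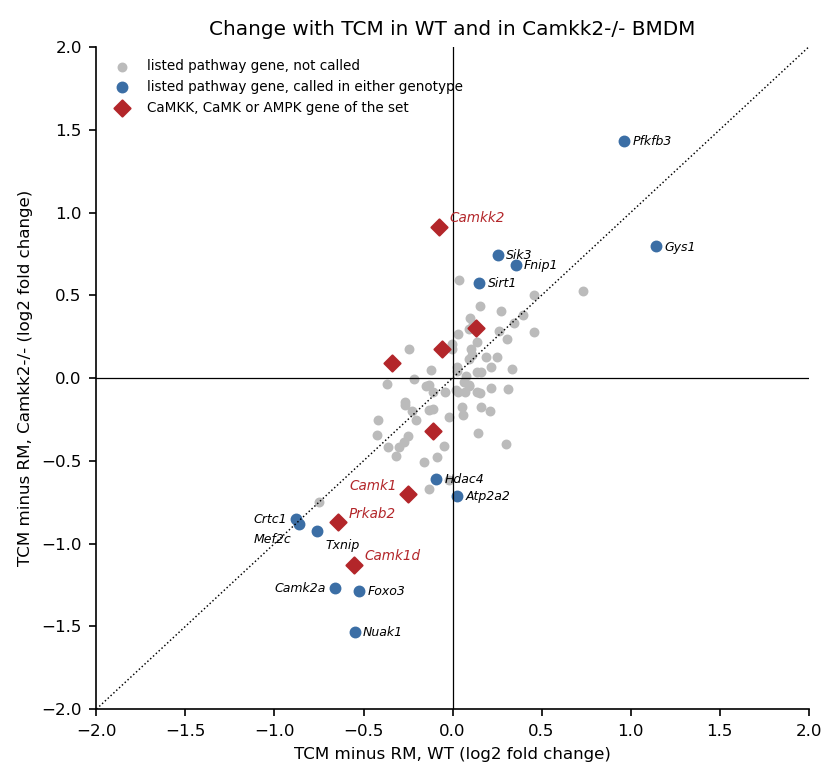
Log2 fold change between TCM and RM in WT (horizontal axis) and in Camkk2-/- BMDM (vertical axis) for 8 members (diamonds, Camk4 left out) and 86 measured genes of the pathway lists (circles, blue where called in either genotype). The dotted line marks equal change. Camk1, Camk1d and Prkab2 lie in the lower left with Foxo3, Nuak1, Mef2c, Crtc1, Txnip and Camk2a (the last below background in TCM), and Camkk2 lies near 0 on the WT axis and at 0.91 on the other.

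By likeness of pattern, the genes nearest to Camkk2 over the 16 arrays, each gene centred on its own mean, were Plaur, Nlrp1a, Cryzl1 and Nedd4l. Their root-mean-square differences from Camkk2 were 0.613, 0.642, 0.678 and 0.701 on the log2 scale, beside 1.28 for the spread of Camkk2 itself. Plaur had group means of 11.13 in WT RM, 9.08 in Camkk2-/- RM, 11.86 in WT TCM and 10.58 in Camkk2-/- TCM-BMDM. Like Camkk2, it was low in the knockout and higher there in TCM than in RM. Unlike Camkk2, with WT means of 9.59 in RM and 9.51 in TCM, Plaur was also higher in TCM in WT. The knockout means of Cryzl1 (7.47 in RM, 7.39 in TCM) and Nedd4l (10.16 in RM, 9.88 in TCM) were not higher in TCM. Nlrp1a was below background in the knockout, with means of 3.51 in RM and 3.05 in TCM. For Camk1d, the other member with the widest range of group means, the nearest genes were Rtl8c (0.134), Nav1 (0.195), Acpp (0.218) and Zfp740 (0.22), beside a spread of 0.541 for Camk1d itself. Nav1 had means of 11.92, 12.52, 11.51 and 11.64 in the same order, with the high value in Camkk2-/- RM-BMDM as for Camk1d.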

How the data were processed

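RNA of 16 BMDM cultures was labelled with biotin and hybridised by the authors to mouse Affymetrix whole-transcript arrays. The authors deposited 1 table of log2 signals per probe set, and Affymetrix Expression Console is the tool in the submitters' processing notes. The sources used here do not give the summarization, normalization, genome build or annotation version, and a normalization that makes arrays alike would remove a shift shared by all genes. The values, from 1.63 to 19.56 with array medians of 5.77 to 5.91, were used as deposited, and the number of arrays limits the precision. The authors' own comparisons in their supplementary data were not used.

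Of 28846 probe sets, 6640 controls and 2634 without a gene symbol were left out. The other 19572 carried 1 symbol and gave 19505 genes, by the highest mean where a gene had several probe sets, with no filter on low signal. All 16 arrays entered 1 linear model of 4 groups without covariates (limma 3.58.1 under R 4.3.3, with moderated variances), and Benjamini-Hochberg adjustment of p-values ran over the 19505 genes. The code was tested on simulated arrays. Exact permutation tests and sequence counts used Python 3.11.15 with NumPy 2.4.6 and pandas 2.3.3, and figures matplotlib 3.10.9.

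All members are named, with up to 3 called genes of each pathway list by smallest adjusted p, the 2 reference genes on each side of Camkk2, and 4 genes of like pattern for Camkk2 and for the other member of widest range. The members and lists were chosen with earlier results of these data known. Alternatives were fits to 8 arrays, each array left out, trended and robust variances, array weights, median centring, repeated quantile normalization, a filter on dim genes, other probe set rules, the replicate number as a block, a factor for replicates 1 and 2 against 3 and 4, and thresholds of 0.01 and 0.1.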

Additional observations from a re-analysis of the deposited data

Results flagged for a closer look

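In 36 groups of 4 arrays (9 members in 4 groups), 2 held an array far from the other 3, where chance alone marks about 1 in 20 groups. For Camk4, below background on all arrays, WT TCM replicate 4 was the low one at 3.42. For Prkab1, WT TCM replicate 1 was the high one at 10.02, with the other 3 arrays of the group between 9.24 and 9.34.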

How the results depend on the processing

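Of 45 member differences, 7 were called. Over 1291 values under alternatives, 1273 kept their side of the threshold, 14 lost a call, 4 gained one and 0 reversed a called sign, and 23 changed sign with neither value called. Camkk2 was called between genotypes under all of them, with −3.08 to −2.62 in RM and −2.02 to −1.72 in TCM when 1 array was left out. Members called between genotypes in RM numbered 1 to 2 with 1 array left out. For TCM against RM in WT they numbered 0 in the fit to 8 arrays, at an adjusted p under 0.01 and without WT TCM replicates 1 and 3 together (chosen after seeing the data), 2 with repeated quantile normalization, and 0 to 1 with 1 array left out (0 without WT RM replicate 4 or WT TCM replicate 1, 2 or 4). Repeated quantile normalization added Camk1d in WT (−0.62, adjusted p = 0.0383) and Stk11 in Camkk2-/- BMDM (−0.43, adjusted p = 0.0293), and the fit to 8 arrays lost Camkk2 in the knockout (adjusted p = 0.0745) and Prkab2 in WT (adjusted p = 0.0743). The causes were not tested. With the replicate block the members called with TCM in Camkk2-/- BMDM were 4, and it changed no member call. That block joins equal numbers of both genotypes. Pairs of RM and TCM within 1 genotype were not fitted, so these calls do not show what such pairing would change. Labels and methods do not say that a replicate number marks shared marrow. For that reason no pairing was used. Of 24 same-numbered pairs in different groups 8 had a correlation of their deviations over 0.1 (range −0.167 to 0.23). Of the 8 between RM and TCM of 1 genotype 5 did. Among the 4 arrays of the other medium, 11 of 16 arrays correlated best with their own number, 6 of 8 in WT and 5 of 8 in the knockout. A partial pairing is a hint from the data, and the calls between media treat the arrays as independent. Pathway genes called with TCM in the knockout ranged from 6 to 20 and in WT from 1 to 6, beside 12 and 4. Camk4 gave no value in the fit without dim genes, and the fit to 8 arrays gave none for the difference between genotypes in the effect of TCM. The signal over background limits what can be said of Camk4.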
